A study of Homo sapiens and Mus musculus with 18 samples.

Results

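Imprinted genes that act in fetal growth and in the placenta were followed from naïve ESCs to late gastruloids in human and mouse. The set held 10 genes, H19, IGF2, MEG3, DLK1, PEG3, PEG10, MEST, CDKN1C, PLAGL1 and NNAT, together with the mouse genes of the same names. It was chosen by symbol, through GENCODE names for the gene identifiers, and all 10 were found among the 44910 human rows and all 10 among the 29720 mouse rows. Polyadenylated RNA was sequenced in bulk from 18 samples in 9 groups of 2 biological replicates. In human these were H9 ESCs in the naïve and in the primed state, RUES2-GLR ESCs in the primed state, and RA-gastruloids taken early (24 h) and late (120 h). Naïve H9 ESCs had been chemically reset and kept in PXGL, a mixture of kinase and tankyrase inhibitors with LIF, on irradiated mouse embryonic fibroblast feeders that were then removed by repeated passaging. RA-gastruloids are aggregates of RUES2-GLR ESCs, a reporter line, and none came from H9. Before aggregation these ESCs were treated with CHIR99021, which activates WNT, and later with retinoic acid as well. Matrigel and a further, lower dose of retinoic acid were added only after the early samples had been taken at 24 h. Late RA-gastruloids thus differ from early ones in these additions as well as in time. Mouse groups all came from the single line E14Tg2a and were naïve ESCs in 2i and LIF, EpiLCs made from them with activin A and bFGF, and early and late gastruloids. Mouse gastruloids were aggregated from the naïve ESCs, not from EpiLCs, without retinoic acid, and the early ones were taken at the end of the CHIR99021 pulse.

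An imprinted gene is read mainly from the copy inherited from a single parent, because its control region carries DNA methylation set in either the egg or the sperm. Many paternally expressed genes, such as IGF2, PEG3 and MEST, promote growth, and several maternally expressed ones, such as H19 and CDKN1C, restrain it. Imprinted genes sit in clusters: H19 lies beside IGF2, and MEG3 beside DLK1, with the lncRNA and the growth-related protein gene of each pair usually read from opposite parental copies. Bulk counts without allele information, as here, do not show which copy was read.

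Sequences are shown for 2 members whose promoters hold a short letter pattern linked to imprint protection, MEG3, which fell from naïve to primed H9 ESCs, and PLAGL1, the only gene that fell from naïve ESCs to EpiLCs in mouse, and for the miRNAs hosted by H19 and MEST, whose host transcripts had a clear peak group in human. The zinc-finger protein ZFP57 recognises the hexamer TGCCGC when its CpG is methylated. RefSeq promoter entries (GRCh38.p14) matched 4 of the 10 human members, H19, MEG3, MEST and PLAGL1, with 14 start sites. Over the 250 bases upstream of each start, both strands searched, 5 of the 14 windows held TGCCGC or its reverse complement GCGGCA, against 12.7% of all 35116 human windows of that length. The 3 MEG3 windows overlap and hold the same match, and the others belong to 1 of 5 windows each of MEST and PLAGL1. In the 2 windows printed, given 5′ to 3′ on the gene's strand, capitals mark the matches.
MEG3 (chr14:100825858-100826107, + strand, 13 CpGs): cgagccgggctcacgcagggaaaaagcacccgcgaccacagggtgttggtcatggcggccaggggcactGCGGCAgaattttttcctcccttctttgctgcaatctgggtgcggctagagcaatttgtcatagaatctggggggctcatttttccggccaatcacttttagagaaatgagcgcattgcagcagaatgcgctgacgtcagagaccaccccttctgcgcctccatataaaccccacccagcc
PLAGL1 (chr6:144008260-144008509, − strand, 32 CpGs): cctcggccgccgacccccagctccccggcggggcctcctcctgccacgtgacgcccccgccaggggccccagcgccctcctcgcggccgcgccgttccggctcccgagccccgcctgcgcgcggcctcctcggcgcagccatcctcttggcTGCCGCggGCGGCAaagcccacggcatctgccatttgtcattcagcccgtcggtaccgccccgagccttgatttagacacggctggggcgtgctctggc
The median window held 11 CpGs, and the H19 window (chr11:2001267-2001516) held 4 and no match. A match is a string of letters and says nothing of binding. The miR-675 hairpin lies within an exon of H19 and the miR-335 hairpin within an intron of MEST. Polyadenylated libraries did not measure the mature miRNAs. Their seeds, bases 2 to 8, are in capitals, and no seed is shared among the 4.
hsa-miR-675-5p: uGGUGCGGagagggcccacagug
hsa-miR-675-3p: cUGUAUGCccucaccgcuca
hsa-miR-335-5p: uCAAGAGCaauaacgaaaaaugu
hsa-miR-335-3p: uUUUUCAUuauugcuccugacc

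Assigned counts ranged from 3681739 to 38771193 per human library and from 6487157 to 20052505 per mouse library. Values are given as CPM, counts scaled to library depth after TMM normalization, and 3 counts in a library corresponded to 0.0715 to 0.956 CPM in human and 0.148 to 0.447 CPM in mouse. The labels held against marker genes: summed naïve markers were 2610 to 2661 CPM in naïve H9 and at most 58.7 in the other human libraries, streak markers peaked in early RA-gastruloids at 1297 to 1358 CPM, and late-stage markers peaked in late RA-gastruloids at 1552 to 1679 CPM. In mouse, summed naïve markers were 3936 to 4020 CPM in naïve ESCs and 1989 to 1997 CPM in early gastruloids. In bulk RNA, fewer cells of a type and less RNA per cell cannot be told apart. Each group came from a single experimental batch, so p-values measure the spread between these samples.

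The 10 genes did not share a peak in human. H19, MEG3, PEG3 and CDKN1C were highest in naïve H9 ESCs, DLK1 in primed RUES2-GLR ESCs, MEST in early RA-gastruloids, and IGF2, PEG10, PLAGL1 and NNAT in late RA-gastruloids. In mouse, all 10 were highest in late gastruloids. When the groups were ordered by level for each gene, 30 of 40 human neighbours in that order did not overlap between replicates, and the 10 that did involved H19, MEG3, DLK1, PEG3 and PLAGL1, mostly at low counts. In mouse, 29 of 30 neighbours did not overlap, with Igf2 in EpiLCs and early gastruloids the exception. Overlap was not counted over all genes, here or in the comparisons below, so it describes these genes and does not set them apart.

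**Figure D1:**
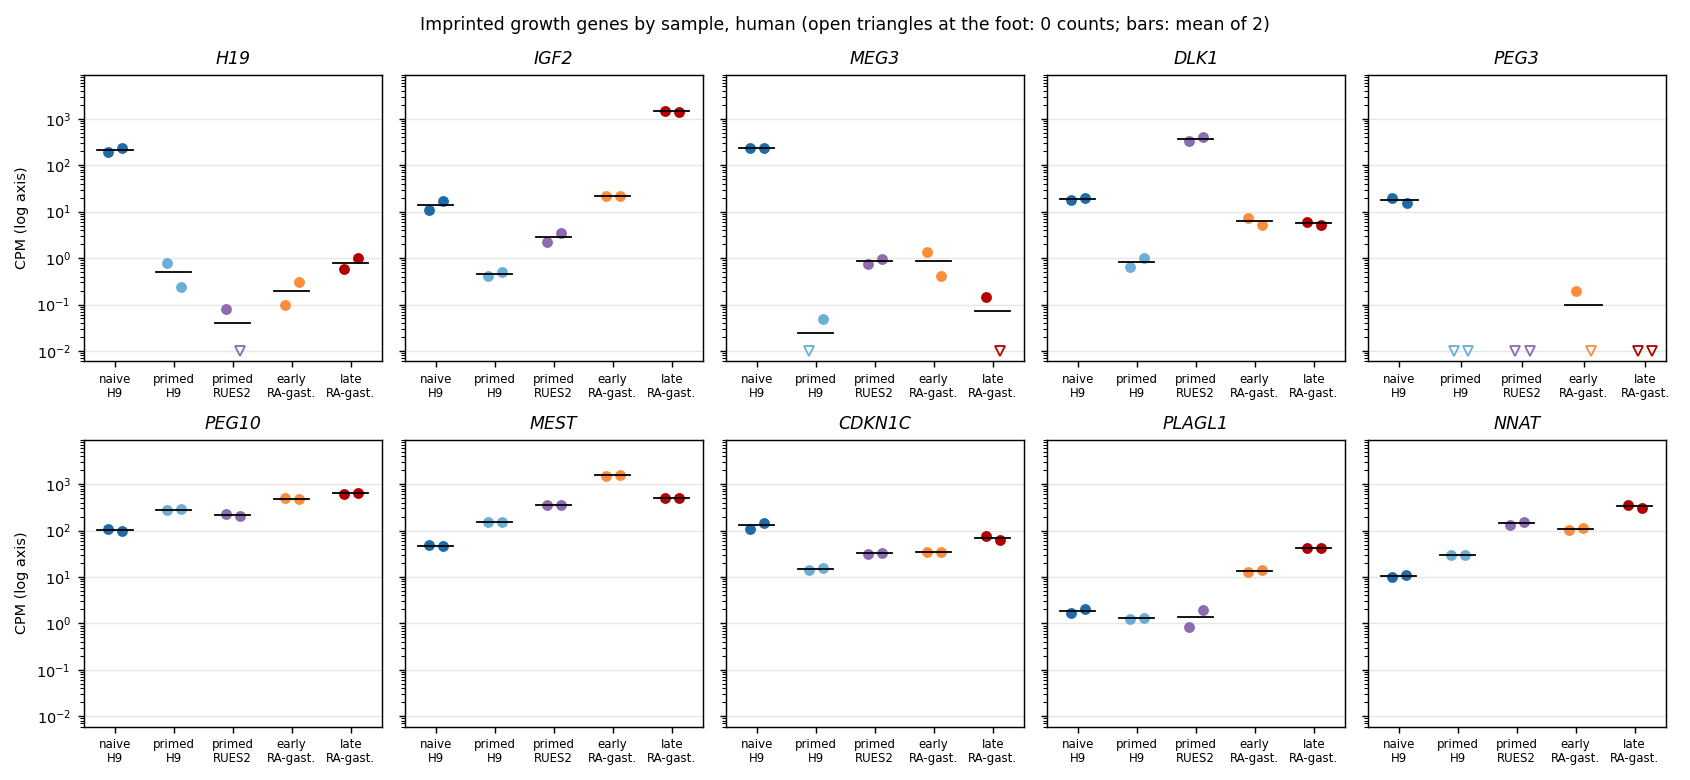
CPM on a log axis for each human gene, with the 2 replicates of each group as points and their mean as a bar. H19, MEG3 and PEG3 sit high in naïve H9 ESCs and near 0 elsewhere, while IGF2 reaches 1457 CPM in late RA-gastruloids.

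From naïve to primed H9 ESCs, both lncRNAs, both secreted growth regulators, PEG3 and CDKN1C fell, while PEG10, MEST and NNAT rose. Of the 10 genes, 6 fell and 3 rose, against 22.3% and 25.5% of all 18300 genes tested. The median log2 fold change of the members was −3.72, against 0.00485 for all genes. H19, a maternally expressed lncRNA of fetal and placental tissue on chromosome 11 (1995166 to 2004552, GRCh38), was 195 and 235 CPM in the naïve libraries (3726 and 4099 counts) and 0.769 and 0.238 CPM in the primed ones. Its log2 fold change was −9.12 ± 0.230 (SE, n = 2 per group, edgeR adjusted p = 5.76e-25). Here and below, the SE of a log2 fold change was computed back from the edgeR F statistic. It uses a spread estimated over all samples of the fit and is not the spread of the 2 replicates. MEG3, the maternally expressed lncRNA of the DLK1 cluster (chromosome 14, 100779410 to 100861031), was 235 and 236 CPM in the naïve libraries. The primed H9 libraries held 0 and 2 MEG3 counts, a ratio of counts of 1.51e-04 with a 95% counting interval of 1.83e-05 to 5.46e-04. Neither lncRNA overlapped between naïve and primed.

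Among the secreted growth regulators, IGF2, the fetal growth factor that signals through IGF1R, was 11.1 and 17.3 CPM in naïve H9 and 0.419 and 0.500 CPM in primed H9, a log2 fold change of −4.86 ± 0.242 (edgeR adjusted p = 1.01e-17). DLK1, a delta-like transmembrane and secreted protein that restrains differentiation, was 17.6 and 19.7 CPM against 0.629 and 1.00 CPM. PEG3, a paternally expressed zinc-finger protein, was 19.9 and 15.5 CPM in naïve H9 and had 0 counts in both primed libraries, at least 126-fold lower with 3 counts per library as the floor. CDKN1C, the cyclin-dependent kinase inhibitor p57, was 109 and 148 CPM against 14.3 and 15.8 CPM. All 4 were lower in both primed libraries than in either naïve library. The genes that rose were 2.71 to 3.17 times higher: PEG10, a retrotransposon-derived gene required for the placenta, went from 109.8 and 98.2 CPM to 279.9 and 285 CPM. MEST, an α/β-hydrolase-like protein, had a log2 fold change of 1.66 ± 0.101 and NNAT, a small neuronal membrane protein, of 1.51 ± 0.131. PLAGL1, a zinc-finger regulator of growth, was at 1.67 and 2.01 CPM in naïve H9 and 1.26 and 1.31 CPM in primed H9 and did not pass the test (edgeR adjusted p = 0.0888).

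Markers of other cell types moved with the genes that were high in naïve H9. Of 8 fibroblast markers, COL3A1 was 171.6 to 181 CPM in naïve and 0.0477 to 0.0699 CPM in primed H9, and DCN and LUM averaged 7.12 and 1.85 CPM in naïve H9 and had 0 counts in primed H9. COL1A1 averaged 366.5 CPM in naïve and 137 CPM in primed H9, COL1A2 121 and 133 CPM, and POSTN 2.47 and 1.36 CPM. THY1 and PDGFRB went the other way, at 0.248 and 0.913 CPM in naïve H9 and 388 and 32.0 CPM in primed H9. The summed level of the 8 was 666 to 687 CPM in naïve and 680.2 to 703 CPM in primed H9. Most of the primed sum was THY1, at 381 and 395 CPM, which is also on the list of primed markers. Windows of 100 bases from all annotated mouse transcripts of each gene were aligned to human transcripts. The best match was the human gene of the same name in 5.29% of windows for H19, 5.80% for MEG3, 4.29% for PEG3 and 6.19% for CDKN1C. It was so in 16.3% for DLK1 and 17.8% for IGF2, against 62.6% for COL1A1, 44.3% for COL3A1 and 1.67% for DCN. Windows were not weighted by expression, so these are not shares of feeder reads. The part of feeder RNA in the naïve values was not tested. All 8 trophoblast markers were also detected in naïve H9, summing to 710.2 to 1037 CPM against 11.04 to 11.22 CPM in primed H9. CGA, the alpha subunit of chorionic gonadotropin, was 335 and 599.8 CPM in naïve H9, GATA2 averaged 184 CPM and GATA3 117 CPM. VGLL1 and ELF5 were at 0 in primed H9. The part of trophoblast-type RNA in the naïve values was not tested.

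**Figure D2:**
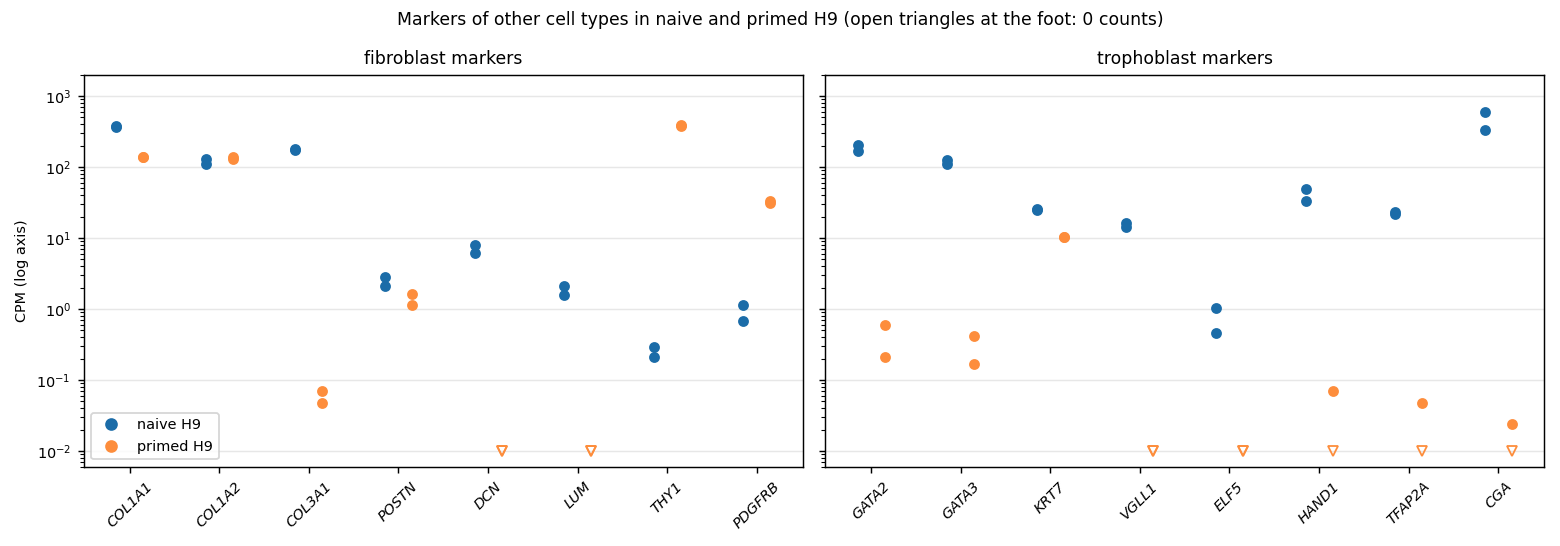
CPM on a log axis for fibroblast and trophoblast markers in the 2 naïve and 2 primed H9 libraries. COL1A1, COL3A1, DCN, LUM and all 8 trophoblast markers lie higher in naïve H9, with CGA at 335 and 599.8 CPM, whereas THY1 and PDGFRB lie higher in primed H9.

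The 2 primed lines differed in most of these genes, although both were cultured in the same medium. Of the 10 genes, 6 were higher in RUES2-GLR than in H9, against 17.1% of all genes, and by edgeR or DESeq2 none was lower at the call thresholds (adjusted p below 0.05, log2 change beyond 1 in size), against 12.2%. With the adjusted p alone 1 was lower, PEG10 at −0.37 ± 0.101 (edgeR adjusted p = 0.00223). At an unadjusted p below 0.05 in edgeR, 2 were lower, PEG10 and H19. DLK1 stood far apart, at 326 and 412 CPM in RUES2-GLR against 0.629 and 1.00 CPM in H9, a log2 fold change of 8.66 ± 0.197 (edgeR adjusted p = 5.5e-25). Its neighbour MEG3 was at 9 and 3 counts in RUES2-GLR against 0 and 2 in H9, a ratio of counts of 22.0 (95% counting interval 4.90 to 202). IGF2 was 2.21 and 3.50 CPM against 0.419 and 0.500 CPM. NNAT was 131 and 154 CPM in RUES2-GLR and 29.5 CPM in both H9 libraries. MEST had a log2 fold change of 1.23 ± 0.0983 and CDKN1C of 1.08 ± 0.155. By TPM, which divides counts by exon length within each library and takes no TMM scaling, MEST averaged 138 in H9 and 159 in RUES2-GLR. CDKN1C averaged 26.5 and 27.9 TPM, and PEG10 184 and 70.1 TPM. The differences in these genes thus depended on the scaling, while DLK1, MEG3, IGF2 and NNAT were higher in RUES2-GLR by TPM too. The CDKN1C call lay at the fold threshold and was lost without primed H9 replicate 1 (0.99), while H19 became lower in RUES2-GLR without primed H9 replicate 2 (−3.40, edgeR adjusted p = 0.00458). H19 was at 11 and 10 counts in H9 and 1 and 0 in RUES2-GLR. PEG3 had 0 counts in all 4 libraries, so no fold is given. The median of all genes was shifted by −0.119 in this comparison, and the median of the 9 members above the floor was 1.23.

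From the primed state of RUES2-GLR to early RA-gastruloids, IGF2, PEG10, MEST and PLAGL1 rose and DLK1 fell. These were 4 genes higher, against 12% of all genes, and 1 lower, against 17.6%. DLK1 fell from 326 and 412 CPM to 7.30 and 5.25 CPM, by 5.86 on the log2 scale (SE 0.169, edgeR adjusted p = 4.8e-23). PLAGL1 rose from 0.819 and 1.91 CPM to 12.9 and 13.9 CPM, and IGF2 rose from 2.21 and 3.50 CPM to 21.5 and 22.1 CPM. MEST reached its human peak here, at 1514 and 1561 CPM from 356 and 348 CPM, a log2 fold change of 2.13 ± 0.0997 (edgeR adjusted p = 8.01e-18). None of these 5 genes overlapped between the groups. PEG10 rose 2.25-fold. CDKN1C and MEG3 had log2 fold changes of 0.08 ± 0.154 and 0.18 ± 0.558 and did not pass the test, and H19 and PEG3 were at 3 counts or fewer in every library of both groups. NNAT had an adjusted p of 0.00624 by edgeR with a log2 fold change of −0.38 ± 0.115, under the fold threshold. By TPM, NNAT went the other way, averaging 230 in RUES2-GLR and 319 in early RA-gastruloids, and CDKN1C averaged 27.9 and 53.4. IGF2, PEG10, MEST and PLAGL1 rose and DLK1 fell by TPM too. The median log2 fold change was 0.67 over the 8 members above the floor, against 0.0840 for all genes. Summed mesoderm markers were 9.01 to 11.2 CPM in RUES2-GLR against 427 to 450.2 CPM in early RA-gastruloids, and their part in the changes was not tested.

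From early to late RA-gastruloids, IGF2 rose by more than any other of the genes. It was 21.5 and 22.1 CPM in the early libraries and 1484 and 1431 CPM in the late ones, a log2 fold change of 6.06 ± 0.152 (edgeR adjusted p = 1.76e-24). Exons of IGF2 (chromosome 11, 2129112 to 2158391) share 333 bases with the antisense gene IGF2-AS, whose own counts were 4 to 6 in early and 415 to 1230 in late RA-gastruloids. A further 3084 bases, 43.2% of the IGF2 exons, are shared with genes not analysed here, among them INS-IGF2 on the same strand. Reads of the 2 strands cannot be told apart in these unstranded counts, and reads on shared exons may have been left out by the counting. In all, 5 genes rose, against 11.8% of all genes, and 2 fell, against 13.2%. PLAGL1 went from 12.9 and 13.9 CPM to 42.7 and 42.8 CPM and NNAT from 105 and 112 CPM to 360.1 and 306 CPM, each about 3-fold higher (3.19 and 3.07). CDKN1C was 2.05-fold higher, at 76.9 and 62.1 CPM in late RA-gastruloids, and its log2 fold change dropped under 1 without late replicate 1 (0.87).

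MEST fell from 1514 and 1561 CPM to 494 and 503 CPM, by 1.62 on the log2 scale (SE 0.0969, edgeR adjusted p = 3.59e-15), and stayed above its level in primed RUES2-GLR in both libraries. The calls for both lncRNAs rested on few counts. H19 went from 1 and 3 counts to 12 and 10 counts (log2 fold change 1.84 ± 0.738, edgeR adjusted p = 0.0365), and the call was lost without early replicate 1 (1.25, adjusted p = 0.241 by edgeR) or late replicate 2 (1.54, adjusted p = 0.12 by edgeR). MEG3 went from 14 and 4 counts to 3 and 0 counts, a ratio of counts of 0.111 (95% counting interval 0.0210 to 0.381), and its call was lost without early replicate 1 (−1.96, edgeR adjusted p = 0.14). DLK1, at 5.20 to 7.30 CPM in the 4 libraries, overlapped between early and late. PEG10 was at 615 and 643 CPM in the late libraries and 493 and 486 CPM in the early ones, and its log2 fold change of 0.36 ± 0.0979 stayed under the threshold. PEG3 was at 2 and 0 counts in early and at 0 in both late libraries. The median was 1.04 over the 9 members above the floor, against 0 for all genes. Summed neural markers were 455 to 460.3 CPM in early and 919.9 to 1064 CPM in late RA-gastruloids, and their part in the changes was not tested. The part of the Matrigel and retinoic acid added between these stages was not tested either.

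**Figure D3:**
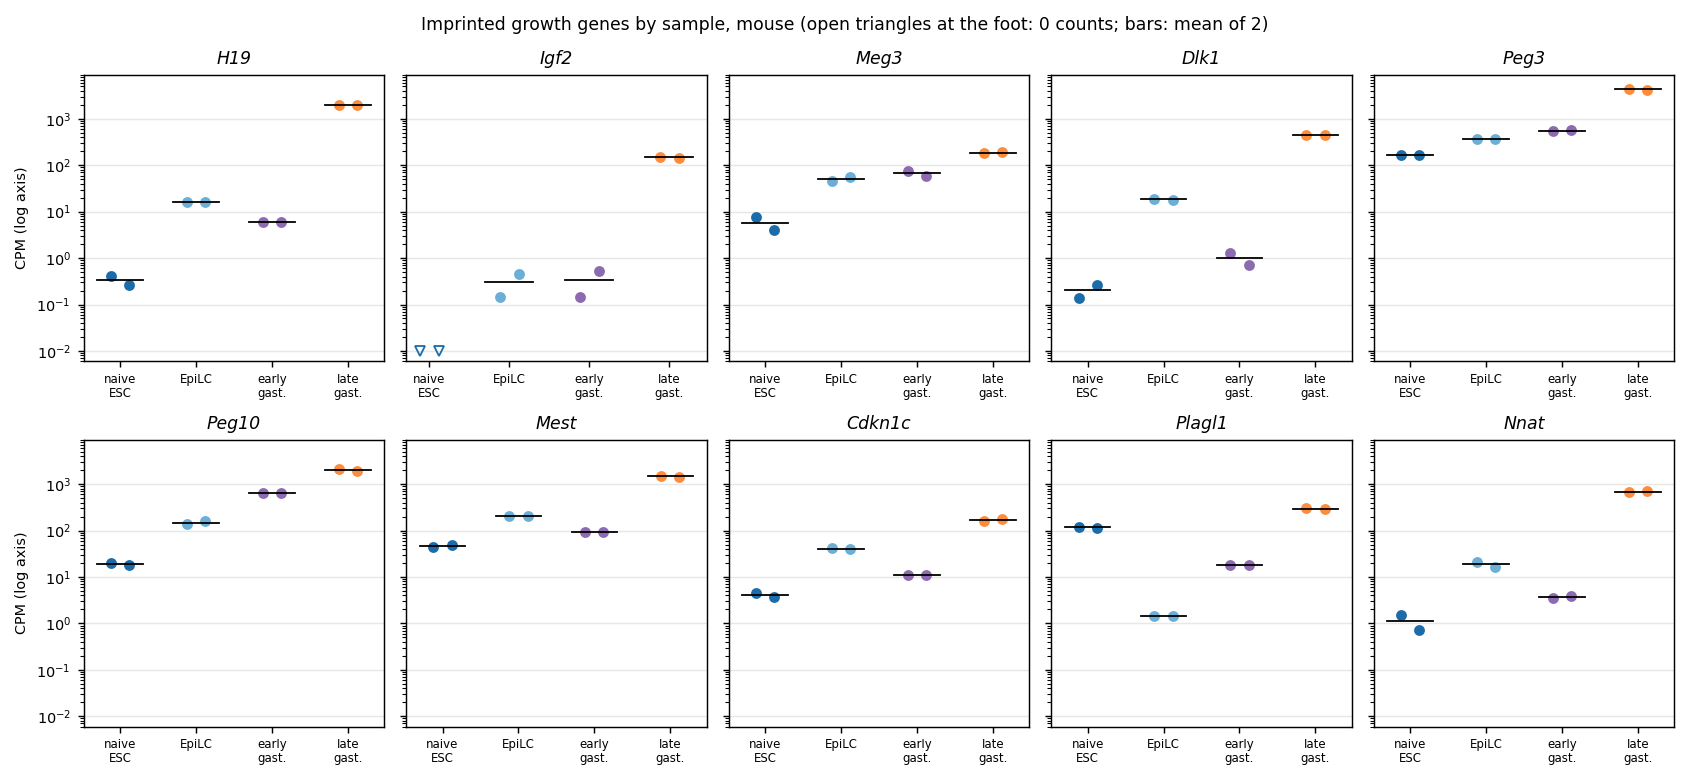
CPM on a log axis for each mouse gene, with the 2 replicates of each group as points and their mean as a bar. All 10 genes are highest in late gastruloids, and Plagl1 alone is lowest in EpiLCs.

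In mouse, the step from naïve ESCs to EpiLCs came with higher levels of 9 of the 10 genes, against 17.7% of the 15003 genes tested, and a lower level of Plagl1 alone, against 12.1%. H19 (chromosome 7, 142129262 to 142133957, GRCm39) was at 3 counts in each naïve library and at 16.1 and 16.5 CPM in EpiLCs, higher by a log2 fold change of 5.59 ± 0.231 (edgeR adjusted p = 2.08e-29). Dlk1 rose from 0.140 and 0.269 CPM to 18.6 and 18.2 CPM, and Meg3 from 7.54 and 4.04 CPM to 45.1 and 56.7 CPM. Both genes of the chromosome 12 pair were thus separated between the groups. Cdkn1c rose 9.77-fold, Nnat 16.5-fold and Peg10 7.75-fold, while Peg3 rose 2.21-fold, from 166 and 165 CPM to 362 and 369.9 CPM. Mest went from 45.2 and 49.1 CPM to 207 and 204 CPM. Plagl1 fell from 120 and 114 CPM to 1.48 and 1.45 CPM, by 6.31 on the log2 scale (SE 0.132, edgeR adjusted p = 6.02e-44). Igf2 had 0 counts in both naïve libraries and 1 and 7 counts in EpiLCs. The EpiLC mean was 0.885 times the floor of 3 counts per naïve library, a bound under 1, so no fold is given. Its call (edgeR adjusted p = 0.00622) was lost without naïve replicate 2 or EpiLC replicate 2 (adjusted p = 0.0747 and 0.161 by edgeR). The members' median log2 fold change was 3.12 with Igf2 at its bound, against 0.0176 for all genes.

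Early mouse gastruloids, which were made from the naïve ESCs, were compared with both earlier states, and the comparisons share samples. Against naïve ESCs, 8 genes were higher, against 16.2% of all genes, and Plagl1 was lower, against 6.81%. Peg10 rose from 19.8 and 17.9 CPM to 645 and 650.2 CPM, a log2 fold change of 5.11 ± 0.0725 (edgeR adjusted p = 1.59e-51). Peg3 was 543 and 574 CPM and Meg3 75.5 and 58.5 CPM, 3.37 and 11.6 times the naïve means. Plagl1, at 18.3 and 18.5 CPM, fell by 2.67 on the log2 scale (SE 0.0780). Mest had a log2 fold change of 0.97 ± 0.0633, under the threshold, and passed it at 1.02 with upper-quartile scaling, 1.00 with no filter and 1.03 without naïve replicate 2. The Dlk1 call rested on 26 and 8 counts and was lost without early replicate 1 (1.63, edgeR adjusted p = 0.0837). That of Igf2, at 3 and 6 counts, was lost without either naïve replicate or early replicate 2 (edgeR adjusted p = 0.0538 to 0.115). The members' median was 1.77 with Igf2 at its bound, against 0.0339 for all genes.

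Against EpiLCs, early gastruloids had 5 of the 10 genes lower, against 9.24% of all genes, and 2 higher, against 11.7%. The genes that were lower were Dlk1, Nnat, Cdkn1c, H19 and Mest. Dlk1 fell from 18.6 and 18.2 CPM to 1.28 and 0.704 CPM, a log2 fold change of −4.08 ± 0.178 (edgeR adjusted p = 5.43e-28). Nnat was 5.08-fold and Cdkn1c 3.69-fold lower, and H19, at 5.88 and 5.98 CPM, was 2.75-fold lower. Plagl1 and Peg10 were higher, by log2 fold changes of 3.64 ± 0.176 and 2.14 ± 0.0557. Peg3 and Meg3 had log2 fold changes of 0.61 ± 0.0469 and 0.38 ± 0.0916, under the fold threshold, and Igf2 overlapped. The median was −0.745, against 0.0129 for all genes. None of the 7 called genes overlapped between the groups.

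All 10 genes rose from early to late mouse gastruloids, against 20.1% of all genes, and none fell, against 19.1%. By DESeq2 none fell either. All 10 edgeR fold changes were positive, so a looser p threshold in edgeR could not have called any lower. The smallest log2 fold change was 1.45 and the largest 8.98. H19 rose from 5.88 and 5.98 CPM to 2029 and 1988 CPM, a log2 fold change of 8.40 ± 0.0753 (edgeR adjusted p = 1.9e-62), and Igf2 from 3 and 6 counts to 153 and 145 CPM (1312 and 974 counts). Exons of Igf2 share 62.9% of their bases with Gm49394, a gene not analysed here, so the Igf2 counts may be incomplete. Dlk1 reached 449 and 457 CPM from 1.28 and 0.704 CPM, and Nnat 688 and 697 CPM from 3.46 and 3.87 CPM. In each of these 4 genes both late libraries lay far above both early ones.

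Mest rose 15.9-fold, to 1478 and 1459 CPM, and Plagl1 16.1-fold, to 302 and 289.9 CPM. Cdkn1c rose 15.3-fold, to 163 and 177 CPM. Peg3 was at 4394 and 4174 CPM, from 543 and 574 CPM, and Peg10 at 2075 and 1954 CPM. Meg3 changed least, at 180.1 and 191 CPM from 75.5 and 58.5 CPM (log2 fold change 1.45 ± 0.0831, edgeR adjusted p = 4.51e-23). The median was 4.00, against −0.0302 for all genes. Summed mesoderm markers were 40.8 CPM in early and 512 to 533 CPM in late gastruloids, trophoblast markers 9.88 to 10.1 against 208 to 213 CPM, endoderm markers 7.39 to 7.51 against 110.1 to 116 CPM, and fibroblast markers 21.9 to 23.2 against 654 to 689 CPM. Summed neural markers changed less, at 83.6 to 86.0 CPM in early and 88.3 to 90.25 CPM in late gastruloids. The part of these cell types in the rise was not tested.

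Human and mouse changes were compared by the difference in log2 fold change, human minus mouse, over 14007 genes matched by symbol in a single fit. Species, line, medium and hours differ together and cannot be told apart. From naïve to primed (EpiLCs in mouse), 9 of the 10 genes differed between the species, against 42.1% of all matched genes. Of the 10, 6 had fold changes of opposite sign, and the share with opposite signs over all matched genes was not computed. H19 differed by −14.83 ± 0.338 (edgeR adjusted p = 7.67e-29), falling in human and rising in mouse, and DLK1 and CDKN1C did the same with differences of −10.80 and −6.50. MEG3 (−15.71), PEG3 (−12.17) and IGF2 (−10.23) also changed in opposite directions. All of these fitted differences except that of CDKN1C involve a group at or under 3 counts per library, naïve mouse ESCs for H19, Dlk1 and Igf2 and primed H9 for MEG3 and PEG3, so they depend on the prior count and are not bounds. PLAGL1 differed the other way, by 5.70 ± 0.325, since Plagl1 fell in mouse. PEG10 (−1.63) and NNAT (−2.70) rose in both species and rose less in human. MEST, which rose in both, with log2 fold changes of 1.66 in human and 2.12 in mouse, differed by −0.56, under the fold threshold (edgeR adjusted p = 1.12e-04).

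**Figure D4:**
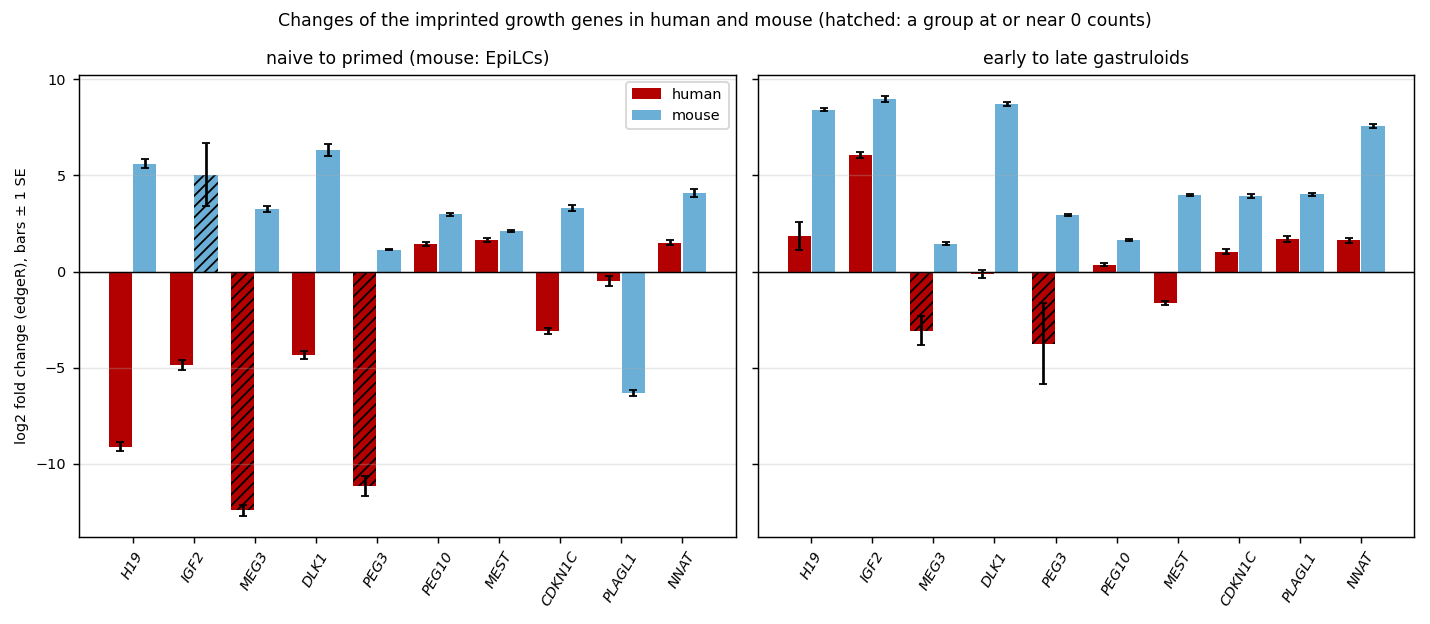
Log2 fold changes with 1 SE for human (red) and mouse (blue), from naïve to primed and from early to late, with hatching where a group is at or near 0 counts. From naïve to primed, H19, IGF2, MEG3, DLK1, PEG3 and CDKN1C point down in human and up in mouse, and from early to late all 10 mouse bars point up.

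From early to late gastruloids, all 10 genes differed between the species, against 35.4% of all matched genes that differed in either direction. In all 10 the human change was the lower one, and the share of all matched genes with a lower human change was not computed. The widest difference was in DLK1, −8.69 ± 0.315 (edgeR adjusted p = 7.22e-23), with DLK1 at 5.20 to 7.30 CPM throughout in human and Dlk1 rising to 449 and 457 CPM in mouse. MEST differed by −5.46 ± 0.116, falling in human and rising in mouse. NNAT differed by −5.81, CDKN1C by −2.75, PLAGL1 by −2.19 and PEG10 by −1.13. H19 (−6.43), MEG3 (−4.38), PEG3 (−6.43) and IGF2 (−2.77) completed the set, of which H19, MEG3 and PEG3 rest on human groups at or near the floor of 3 counts and IGF2 on a mouse group near it.

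The members of the H19 and IGF2 pair were also set against each other within each library, by TPM, which divides counts by exon length. H19 made up 97.7% and 97.1% of the pair in naïve H9, with 245 TPM at most, and 0.0961% and 0.175% in late RA-gastruloids, where IGF2 was 820.1 and 815.6 TPM. In mouse late gastruloids H19 was 96.6% and 96.7% of the pair, at 2777 and 2657 TPM against 97.3 and 90.0 TPM for Igf2. Late gastruloids of the 2 species thus lay at opposite ends of this share, with IGF2 the main transcript in human and H19 in mouse. Levels of both IGF2 and Igf2 may be understated by the shared exons described above, 43.2% of exon bases in human and 62.9% in mouse. The primed H9 libraries, at 11 and 10 H19 counts, gave 81.8% and 53.9%, too few counts for an order. For the chromosome 14 pair, MEG3 made up 75.2% and 73.0% in naïve H9 and 0.0511% and 0.0524% in primed RUES2-GLR, where DLK1 was 136 and 166 TPM. In mouse, Meg3 was 94.1% and 81.7% in naïve ESCs, 41.8% and 48.1% in EpiLCs, 94.6% and 96.1% in early gastruloids and 10.6% and 11.03% in late gastruloids. MEG3's union of exons spans 23224 bases in human, more than a single transcript holds, which lowers its TPM in every library alike. These shares are descriptions, with no test.

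**Figure D5:**
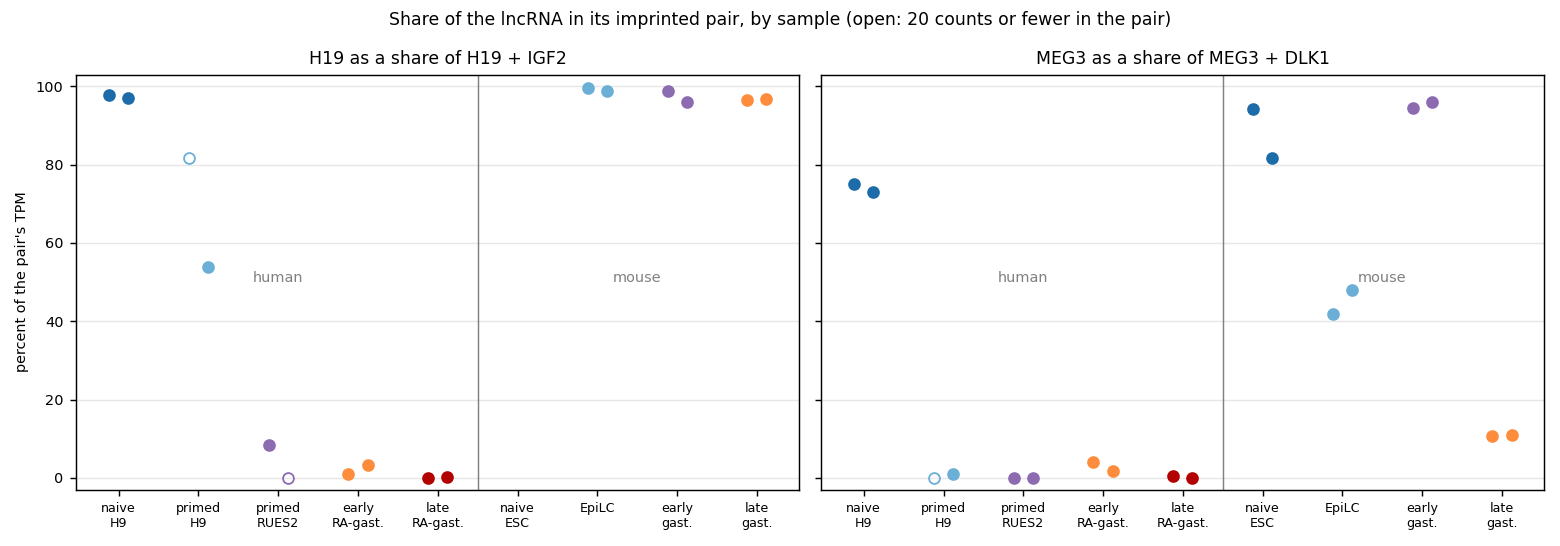
Percent of each pair's summed TPM that comes from the lncRNA, per library, with human groups left of the line and mouse groups right of it, and open points for 20 counts or fewer. H19 is 97.7% and 97.1% of its pair in naïve H9 but 0.0961% and 0.175% in late RA-gastruloids, and it is 96.6% and 96.7% in late mouse gastruloids. Mouse naïve ESCs have no H19 point because each library held 3 counts.

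Exon overlaps limit some of these counts. Human PEG3 shares 50.9% of its exon bases with ZIM2 and an antisense lncRNA (ENSG00000286125), which averaged 0.110 and 1.08 CPM in naïve H9 and had 0 counts in both primed lines. MEST shares 27.6% with COPG2, MESTIT1 and ENSG00000270823, and mouse Mest 23.1% with Copg2. COPG2 was 80.0 ± 2.66 CPM in primed H9 and 99.1 ± 0.337 CPM in late RA-gastruloids (SD, n = 2), and Copg2 lay between 90.3 and 122 CPM on average in all mouse groups. Mouse Cdkn1c shares 30.7% with Gm44732, not analysed here. H19 shares 73 bases with MIR675, also not analysed here, and DLK1 and human CDKN1C share none.

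Other imprinted genes were taken from lists of 15 genes labelled as paternally and 12 labelled as maternally expressed. The labels are by gene and are simplified, since GNAS and BLCAP, on the paternal list, are not read from the paternal copy in all transcripts. Gnas was among the genes of that list that rose in late mouse gastruloids. From naïve to primed H9, 4 of 13 tested paternally expressed genes rose and 3 fell, and 6 of 11 maternally expressed genes rose and 3 fell, against 25.5% higher and 22.3% lower over all genes. The largest falls among them were MKRN3, from 4.02 CPM to 0 counts (at least 28.6-fold lower), DIO3 (−6.00 ± 0.328), a thyroid hormone-inactivating enzyme of the DLK1 cluster, and PHLDA2 (−4.54 ± 0.161), a placental growth restrainer on chromosome 11. SNRPN and SNHG14 rose by 1.69 and 1.63 on the log2 scale. From naïve mouse ESCs to EpiLCs, 9 of 15 paternally and 7 of 10 maternally expressed genes rose, and 1 and 2 fell, against 17.7% higher and 12.1% lower over all genes. Dio3 fell there too (−3.41 ± 0.322). From early to late, 2 paternally expressed genes rose and 3 fell in human, against 8 and 1 in mouse, and 1 maternally expressed gene rose and 4 fell in human, against 4 and 3 in mouse. Over all genes in that step, 11.8% rose and 13.2% fell in human, and 20.1% rose and 19.1% fell in mouse. PHLDA2 averaged 13.2 CPM in early RA-gastruloids and held 1 and 2 counts in the late ones, a ratio of counts of 0.00750 (95% counting interval 0.00154 to 0.0221). Asb4 rose by 4.34 on the log2 scale in late mouse gastruloids.

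In the IGF axis, which carries the IGF2 signal, 7 of 11 tested genes rose and 2 fell from naïve to primed H9, against 25.5% and 22.3% of all genes. IGFBP4, which binds IGFs outside the cell, rose from 6.04 to 203 CPM and the adaptor IRS1 from 11.2 to 85.9 CPM. From RUES2-GLR to early RA-gastruloids 6 of 11 fell and 1 rose, against 17.6% and 12% of all genes, with the largest falls in IGFBP3 (−4.49 ± 0.259) and the insulin receptor INSR (−2.64 ± 0.122). These 2 genes fell by TPM too, while IGF1R averaged 167 and 79.9 CPM but 25.7 and 22.4 TPM. The count thus depends on the scaling. IGFBP5 rose with IGF2 from early to late, from 18.2 to 530.2 CPM in human and from 3.42 to 417 CPM in mouse. In that step 2 of 11 genes rose and 1 fell in human, against 11.8% and 13.2% of all genes, and 6 of 10 rose and 1 fell in mouse, against 20.1% and 19.1%, including Igf1, which went from 0.0934 to 7.01 CPM. Igfbp2 fell from 713 to 266 CPM in mouse, and IGFBP4 from 457 to 138 CPM in human.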

How the data were processed

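Polyadenylated RNA was selected, made into NEBNext libraries and sequenced paired-end in 18 samples, 9 groups of 2 replicates. Per the labels and the study's methods, reads were trimmed with Trimmomatic 0.39, aligned to GRCh38 or GRCm39 by STAR, and assigned to genes by featureCounts at default settings. The STAR version and annotation release are not given in the sources used here. The deposited values are raw counts per gene. At default settings reads that fall on 2 genes are dropped and strand is ignored. Symbols came from GENCODE 44 and M39.

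Counts were fitted per species with edgeR 4.0.16 (TMM scaling, filterByExpr, glmQLFit and glmQLFTest over all groups of a species, Benjamini-Hochberg adjustment). A gene was called at an adjusted p below 0.05 with a log2 change beyond 1 in size. Species differences were tested as interactions in a single edgeR fit of all 18 samples. CPM used TMM-scaled totals, and TPM the deposited exon lengths. On simulated counts with 200 genes changed 4-fold, edgeR recovered 197 in human (18300 genes) and 188 in mouse (15003 genes), with 4 and 0 false calls. The changed genes were drawn from those averaging above 1 CPM, at a single fixed dispersion. This recovery thus says nothing of calls that rest on a few counts per library. Mouse transcript windows of 100 bases were aligned to GENCODE 44 human transcripts with minimap2 2.31-r1302, requiring 66 aligned bases and at most 10 differences. A window counted if its best match was the human gene of the same name. Intervals and floors cover counting error only.

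The members, lists and tests were chosen with earlier results of these data known. All members are named. From other lists, at most the 2 called genes with the largest change in each direction are named per comparison, along with genes that share exons with a member, and the 3 genes most like H19, IGF2, MEG3 and PEG10 in each species. The cell type markers named singly were chosen after their values were seen. Alternatives were other scalings, DESeq2 1.42.0, no filter, the compared groups alone, adjusted p alone, a replicate block and leaving out each replicate.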

Additional observations from a re-analysis of the deposited data

Results flagged for a closer look

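The human and mouse changes differed beyond the thresholds by a direct test in 19 cases (edgeR interaction, human minus mouse log2 fold change). From naïve to primed, the difference was −14.83 for H19, −10.23 for IGF2, −15.71 for MEG3, −10.80 for DLK1, −12.17 for PEG3, −1.63 for PEG10, −6.50 for CDKN1C, 5.70 for PLAGL1 and −2.70 for NNAT. The first 5 of these involve a group at or under 3 counts per library (naïve mouse ESCs for H19, Igf2 and Dlk1, primed H9 for MEG3 and PEG3), depend on the prior count and are not bounds. From early to late, it was −6.43 for H19, −2.77 for IGF2, −4.38 for MEG3, −8.69 for DLK1, −6.43 for PEG3, −1.13 for PEG10, −5.46 for MEST, −2.75 for CDKN1C, −2.19 for PLAGL1 and −5.81 for NNAT. The PEG3 value from early to late rests on 2 and 0 counts in early and 0 in late RA-gastruloids, and those of H19, MEG3 and IGF2 also involve a group near 3 counts per library. Species, line, medium and hours cannot be told apart in these differences.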

How the results depend on the processing

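Of 751 recomputed fold changes of the members, 736 kept direction and call, 11 lost the call, 4 gained it and 0 reversed. With adjusted p alone, 1 member was lower in primed RUES2-GLR than in H9 (0 with the fold threshold), 2 were lower in early RA-gastruloids than in RUES2-GLR (1 with it) and 4 were higher in early mouse gastruloids than in EpiLCs (2 with it). Fitting the compared groups alone gave 1 member lower from early to late RA-gastruloids, not 2, because MEG3 no longer passed the filter. H19, called higher in the fit of all human groups, and PEG3, not called there, did not pass it either. Leaving out single replicates gave 0 to 1 members lower from H9 to RUES2-GLR and 1 to 2 lower from early to late RA-gastruloids.

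Same-numbered replicates did not deviate together (correlations of −0.112 to 0.0684 over 10 pairs of human groups and −0.0483 to 0.00806 over 6 in mouse), so they share only a number. With the replicate block, 3 members were higher and 6 lower from naïve to primed H9, and no member's call changed in any comparison. Depth limits H19, MEG3 and PEG3 in human primed and gastruloid libraries and Igf2 in mouse before the late stage, where differences were not detectable below a few counts per library.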

Other observations

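Of 7 genes that maintain imprints, DPPA3 and ZFP57 were lower in primed than in naïve H9, and no gene of the list was higher, against 22.3% lower and 25.5% higher over all genes. DPPA3, an oocyte and naïve-state protein, was 424 ± 19.3 CPM in naïve H9 (SD, n = 2) and 0.708 CPM in primed H9, and ZFP57 was 23.3 ± 1.36 CPM and 0.611 CPM. In mouse, Zfp57 was 192 CPM in naïve ESCs, 49.2 in EpiLCs, 130.3 in early gastruloids and 26.7 in late gastruloids. It fell from naïve ESCs to EpiLCs and from early to late gastruloids (edgeR), and its change from naïve ESCs to early gastruloids, which are made from them, was −0.55 ± 0.0678 on the log2 scale, under the fold threshold. DNMT1, the maintenance methyltransferase, was lower in RUES2-GLR than in H9 by 1.00 on the log2 scale, at the fold threshold. By TPM it averaged 90.4 in H9 and 22.2 in RUES2-GLR, so the size of its difference depended on the scaling. From early to late, 0 of 7 were called in human by edgeR, although ZNF445, CTCF, DNMT1 and UHRF1 had an unadjusted p below 0.05 with log2 changes under the fold threshold (named after their values were seen), against 11.8% higher and 13.2% lower over all genes, and 2 fell in mouse, Zfp57 and Dppa3, against 19.1%.

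The genes with levels most like those of 4 members were ranked by Pearson's r over the samples of a species, as a description with no test, since 2 replicates per group and shared scaling make high values common. Over 10 human samples, IGF2 was most like RARB (0.994), the retinoic acid receptor beta gene, then BCL7A and EYA4. MEG3 was most like ELF3 (0.992), ADGRE5 and ARSI, H19 like ENSG00000289987 (0.990), NDUFA6 and NEFH, and PEG10 like TIFA (0.995), RHOBTB1 and MAML3. Over 8 mouse samples, Meg3 was most like Mirg (0.998), a miRNA host transcript of the same cluster, then Bin1 and Alcam. H19 was most like Dennd5b (0.999), Hmgcs1 and Obi1, Igf2 like Smim10l1, Tspan18 and Epha3 (0.997 to 0.998), and Peg10 like Tbc1d16 (0.998), Ror1 and Atxn1l.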
